A study of Homo sapiens with 4 samples.

Results

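RhoA signalling was examined through 9 target assays of a qRT-PCR panel: RHOA itself, its regulators ARHGDIA, ARHGEF1, ARHGAP5 and ARHGAP6, and the effectors ROCK1, ROCK2, PPP1R12A and DIAPH1. These genes were taken by symbol and role from the 184 target genes of the panel, with earlier results of these data known. HEK293 is an established human embryonic kidney cell line. The lines compared had 2 biological replicates each (4 samples): HEK293-PRL-1, stably transfected with pcDNA4 carrying PRL-1 (the phosphatase encoded by PTP4A1), and HEK293-vector, stably transfected with the empty pcDNA4. Whether each line was a clone or a pool of transfectants is not given in the sources used here, so PRL-1 and other differences between the 2 lines cannot be told apart. The panel was assembled from genes that had differed in the study's other experiments or that belong to integrin, cytoskeleton and motility pathways, so it is not a sample of all genes.

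RhoA is a small GTPase that cycles between an active GTP-bound and an inactive GDP-bound form. Guanine nucleotide exchange factors such as ARHGEF1 load GTP, GTPase-activating proteins such as ARHGAP5 and ARHGAP6 speed its hydrolysis, and the dissociation inhibitor ARHGDIA keeps the GTPase soluble and inactive. Active RhoA binds the kinases ROCK1 and ROCK2, which phosphorylate PPP1R12A, the targeting subunit of myosin phosphatase, and so raise myosin-driven contraction. It also opens the formin DIAPH1, which nucleates unbranched actin filaments. The assays measured transcript only, not GTP loading, kinase activity or protein.

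Relative to 18S ribosomal RNA, transcripts of the effectors were higher in HEK293-PRL-1 and those of RHOA, ARHGDIA and ARHGEF1 did not pass the test. ROCK2 rose 24.5-fold, PPP1R12A 15.8-fold, ROCK1 13.0-fold and DIAPH1 2.62-fold, so that 4 of the 4 effectors passed, although DIAPH1 turned lower with B2M or the panel median as the reference. Among the regulators, ARHGAP5 rose 29.5-fold, while ARHGDIA and ARHGEF1 changed by 0.01 and -0.14 on the log2 scale and did not pass. RHOA, with a log2 fold change of 0.24, did not pass either. ARHGAP6 was not detected in any sample. In all, 5 of the 8 genes tested rose, against 58.6% of all 174 panel assays tested relative to 18S. With 18S no member fell at the adjusted threshold in limma, against 7.47% of the panel. None fell at an unadjusted p of 0.05 in limma or with each assay's own variance either. The share that rose with 18S is thus near that of the panel. With B2M or the panel median as the reference, 4 of the 8 rose, beside 22 and 45 of the 174 assays. In the same 2 fits 3 and 4 of the 8 fell, beside 82 and 90 assays. GAPDH as the reference gave 2 that fell, beside 38 assays. Relative to 18S the median log2 fold change was 2.55 over the 8 genes against 1.34 over the panel. The 4 effectors had a median of 3.84 and the 3 detected regulators a median of 0.01.

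The genes lie on different chromosomes (GRCh38.p14, RefSeq). RHOA is at chr3:49359145-49411976, ARHGDIA at chr17:81867721-81871337, ARHGEF1 at chr19:41883184-41930141, ARHGAP5 at chr14:32077304-32159728 and ARHGAP6 at chrX:11137544-11665920. ROCK1 is at chr18:20946906-21111813, ROCK2 at chr2:11179759-11345437, PPP1R12A at chr12:79773563-79935460 and DIAPH1 at chr5:141515021-141619000. For 4 of the 8 detected genes RefSeq gave a single start site, and the 250 bases before it are shown on the gene's own strand to set RHOA, which did not pass the test, beside 3 genes that rose. Capitals mark the GC box GGGCGG, the CCAAT box CCAAT and the TATA box TATAAA, each searched on both strands, with overlapping GC boxes counted separately:
RHOA, chr3:49411977-49412226, minus strand: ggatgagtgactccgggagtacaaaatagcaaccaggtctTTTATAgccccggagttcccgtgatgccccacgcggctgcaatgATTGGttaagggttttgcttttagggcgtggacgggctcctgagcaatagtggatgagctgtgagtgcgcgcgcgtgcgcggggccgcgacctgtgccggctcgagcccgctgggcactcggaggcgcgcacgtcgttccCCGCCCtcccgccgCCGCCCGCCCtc
ARHGAP5, chr14:32077054-32077303, plus strand: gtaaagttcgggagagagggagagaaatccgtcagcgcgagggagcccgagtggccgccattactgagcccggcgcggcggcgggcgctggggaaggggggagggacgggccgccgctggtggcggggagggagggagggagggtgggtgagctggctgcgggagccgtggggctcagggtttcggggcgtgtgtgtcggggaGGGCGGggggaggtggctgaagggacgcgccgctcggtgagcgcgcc
ROCK1, chr18:21111814-21112063, minus strand: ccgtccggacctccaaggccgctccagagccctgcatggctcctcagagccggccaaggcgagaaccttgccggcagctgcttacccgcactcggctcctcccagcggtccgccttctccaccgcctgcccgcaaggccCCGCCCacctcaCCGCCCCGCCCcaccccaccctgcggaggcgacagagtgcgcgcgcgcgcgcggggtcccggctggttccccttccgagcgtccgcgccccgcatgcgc
DIAPH1, chr5:141619001-141619250, minus strand: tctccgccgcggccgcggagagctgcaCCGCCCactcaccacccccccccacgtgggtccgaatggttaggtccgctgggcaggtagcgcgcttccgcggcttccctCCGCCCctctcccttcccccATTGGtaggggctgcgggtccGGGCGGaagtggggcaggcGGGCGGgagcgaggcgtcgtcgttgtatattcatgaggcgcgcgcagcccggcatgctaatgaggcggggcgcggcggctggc

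G and C made up 65.6% of the bases for RHOA, 74.4% for ARHGAP5, 75.6% for ROCK1 and 72.8% for DIAPH1, against a median of 58% over 35116 promoter windows of the same length. The 4 windows held 28, 28, 31 and 31 CpG dinucleotides in that order, against a median of 11. GC boxes numbered 3 in RHOA, 1 in ARHGAP5, 3 in ROCK1 and 4 in DIAPH1, and 42.6% of all windows held at least 1. A CCAAT box was present in RHOA and DIAPH1 and, among the windows not shown, in some of those of PPP1R12A. It is found in 32.0% of all windows. The TATA box letters, which 10.7% of all windows hold, were present in the window of RHOA and, among the windows not shown, in 1 of the 2 windows of ROCK2. Among the windows not shown, G and C made up 77.6% and 44.8% for ROCK2 and 26.8%, 66.8%, 73.2% and 48.0% for PPP1R12A. They made up 86.0% and 71.6% for ARHGDIA and 80.0%, 71.6% and 69.2% for ARHGEF1. ARHGDIA and ARHGEF1 did not pass the test either, so the lower share of RHOA was not shared by the genes that did not pass. A letter match is a description and not a binding site.

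TaqMan assays read a growing PCR product by probe fluorescence. The cycle number at which this signal crosses a threshold is the Ct, so more template gives a lower Ct. A Ct of 40 stands for a transcript that was not detected. ΔCt is the Ct of an assay minus the sample's mean 18S Ct (2 wells), and a log2 fold change is positive where HEK293-PRL-1 had the lower mean ΔCt. Because amplification efficiency was not measured, the ΔCt of different assays are not compared as levels. The columns of Ct values distinguish the replicates by the letters a and b, which are used here as names. The PTP4A1 assay was at 40 in all 4 samples, so the panel does not check the overexpression of PRL-1. Raw Ct of 18S lay between 13.9 and 14.2 cycles in the 4 samples. Of the 8 detected genes, the regulators were on one plate and RHOA and the effectors on the other, and the 18S wells of the 2 plates differed by at most 0.033 cycles within a sample. The limma test shared variance over the 174 assays with Benjamini-Hochberg adjustment over them. With 2 samples per line, an exact two-sided permutation p cannot be below 0.333, so the p-values rest on the shared variance.

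**Figure D1:**
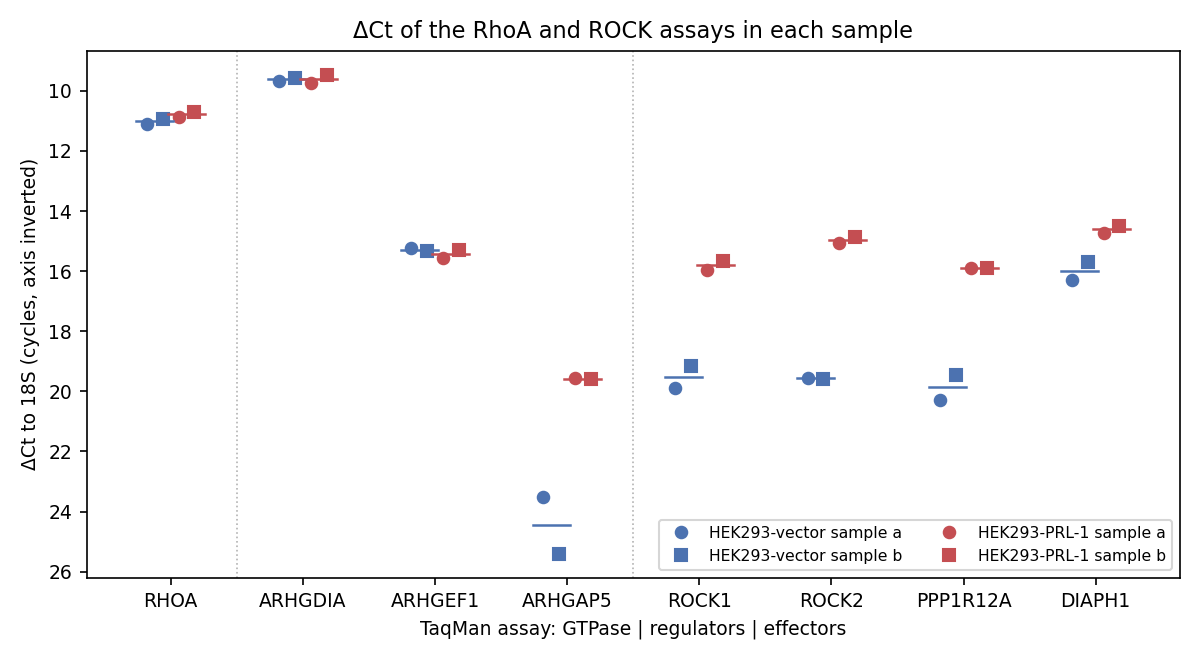
ΔCt to 18S in cycles (inverted axis, higher means more transcript) for the 8 detected genes, with each of the 2 HEK293-vector and 2 HEK293-PRL-1 samples as a point and the group mean as a line. The 4 effectors and ARHGAP5 lie higher in both HEK293-PRL-1 samples, and for each of RHOA, ARHGDIA and ARHGEF1 the 4 points span less than 0.5 cycles.

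RHOA was detected with little spread. Its raw Ct was 24.98 and 24.94 in HEK293-vector a and b, and 25.01 and 24.77 in HEK293-PRL-1 a and b. Its ΔCt was 11.09 and 10.93 in HEK293-vector and 10.86 and 10.69 in HEK293-PRL-1. Both HEK293-PRL-1 samples therefore lay above the HEK293-vector samples, by a gap of only 0.078 cycles, and the groups did not overlap in this direction in 69.0% of the panel assays. The log2 fold change was 0.24 ± 0.218 (SE, n = 2 per group), with a 95% interval from -0.34 to 0.82 and an adjusted p of 0.392 by limma. Relative to 18S, a change of RHOA within that interval could not be resolved with 2 samples per group. The interval holds for 18S as the reference only. RHOA was at -0.31 with GAPDH, where it did not pass, and fell by 2.14 with B2M and by 1.95 with the panel median.

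ARHGDIA (RhoGDIα) and ARHGEF1 (p115-RhoGEF) likewise did not pass relative to 18S, although both fell with GAPDH, B2M or the panel median as the reference. ARHGDIA had ΔCt values of 9.66 and 9.57 in HEK293-vector and 9.75 and 9.46 in HEK293-PRL-1, so that the HEK293-PRL-1 pair enclosed the HEK293-vector pair. Its log2 fold change was 0.01 ± 0.227 (SE, n = 2 per group; 95% interval -0.59 to 0.62; adjusted p = 0.984, limma). For ARHGEF1 the ΔCt was 15.24 and 15.34 in HEK293-vector and 15.56 and 15.29 in HEK293-PRL-1. The groups overlapped again, and the log2 fold change was -0.14 ± 0.226 (SE, n = 2 per group; 95% interval -0.74 to 0.46; adjusted p = 0.663, limma).

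Of the 2 GTPase-activating proteins, ARHGAP5 (p190-B RhoGAP) differed and ARHGAP6 gave no signal. ARHGAP5 reached a raw Ct of 37.4 and 39.4 in HEK293-vector, close to the limit of 40, and of 33.7 in both HEK293-PRL-1 samples. Its ΔCt was 23.5 and 25.4 in HEK293-vector and 19.57 and 19.59 in HEK293-PRL-1. The raw Ct of HEK293-vector a minus b was -2.02 cycles, the widest such difference among the 8 genes, while the gap between the groups was 3.92 cycles. The log2 fold change was 4.88 ± 0.669 (SE, n = 2 per group; 95% interval 3.10 to 6.67; adjusted p = 0.00338, limma), the 5th highest of the 174 assays. It was 5.83 without HEK293-vector a and 3.93 without HEK293-vector b, so the fold rests on which of these late values is used. The ARHGAP5 assay lies within a single exon, as its identifier Hs00869394_s1 marks, and such an assay also reads genomic DNA. The RNA had been treated with DNase, and the part of genomic DNA in the signal was not tested. With ARHGAP6 at 40 in all 4 samples, a difference in it was not detectable, and it entered no test.

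ROCK2, which phosphorylates myosin light chain as well as PPP1R12A, had the smallest adjusted p of the 8 genes tested. Its raw Ct was 33.4 and 33.6 in HEK293-vector and 29.2 and 28.9 in HEK293-PRL-1. Its ΔCt was 19.55 and 19.60 in HEK293-vector and 15.07 and 14.85 in HEK293-PRL-1, with 4.48 cycles between the nearest samples of the 2 lines. The log2 fold change was 4.61 ± 0.217 (SE, n = 2 per group; 95% interval 4.03 to 5.19; adjusted p = 0.00103, limma), the 8th highest of the panel. From bulk RNA, a larger share of expressing cells and more transcript per cell cannot be told apart.

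ROCK1, the paralogue of ROCK2 with much the same substrates, also rose. Its raw Ct was 33.8 and 33.2 in HEK293-vector and 30.1 and 29.7 in HEK293-PRL-1. Its ΔCt was 19.88 and 19.15 in HEK293-vector and 15.97 and 15.66 in HEK293-PRL-1, and the groups stood 3.18 cycles apart. The log2 fold change was 3.70 ± 0.336 (SE, n = 2 per group; adjusted p = 0.00147, limma). Both kinases thus crossed the threshold at 33.2 to 33.8 cycles in HEK293-vector and at 28.9 to 30.1 in HEK293-PRL-1.

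PPP1R12A (MYPT1), the substrate of ROCK in myosin phosphatase, rose as well. Its raw Ct was 34.2 and 33.5 in HEK293-vector and 30.0 in both HEK293-PRL-1 samples. Its ΔCt was 20.29 and 19.45 in HEK293-vector and 15.89 in both HEK293-PRL-1 samples. The raw Ct of HEK293-vector a minus b was 0.72 cycles, which was small beside the gap of 3.56 cycles between the groups. The log2 fold change was 3.98 ± 0.347 (SE, n = 2 per group; adjusted p = 0.00146, limma).

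DIAPH1 (mDia1), the effector outside the ROCK branch, had the smallest rise of the 5 genes that passed. Its ΔCt was 16.31 and 15.69 in HEK293-vector and 14.72 and 14.50 in HEK293-PRL-1, with a gap of 0.97 cycles between the groups. The log2 fold change was 1.39 ± 0.300 (SE, n = 2 per group; 95% interval 0.59 to 2.19; adjusted p = 0.0138, limma), close to the panel median of 1.34. It ranked 87th of the 174 assays. Without HEK293-PRL-1 a the log2 fold change was 1.51 (adjusted p = 0.0616, limma) and without HEK293-PRL-1 b it was 1.28 (adjusted p = 0.0929, limma), fits in which the lone HEK293-PRL-1 sample is assumed to vary like the HEK293-vector pair. With each assay's own variance in place of the shared one, DIAPH1 (adjusted p = 0.0888) and ARHGAP5 (adjusted p = 0.0712) no longer passed, while ROCK1, ROCK2 and PPP1R12A did, against 24.1% of the panel called higher by that test.

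**Figure D2:**
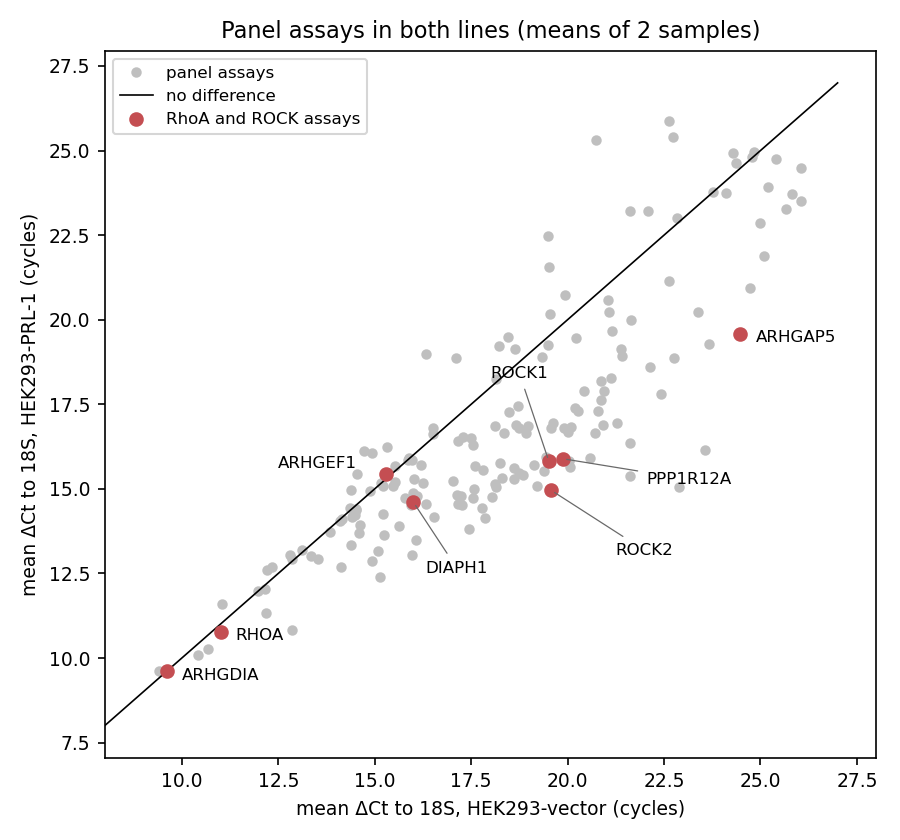
Mean ΔCt to 18S in cycles of HEK293-vector (horizontal) and HEK293-PRL-1 (vertical), each the mean of 2 samples, for the 174 panel assays tested, with the 8 detected RhoA and ROCK genes in red. Points below the line were higher in HEK293-PRL-1. ROCK1, ROCK2, PPP1R12A and ARHGAP5 lie 3.70 to 4.88 cycles below the line and RHOA, ARHGDIA and ARHGEF1 lie on or beside it.

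Since 102 of the 174 panel assays rose relative to 18S, the genes were also set against each other within a sample, which does not use 18S. RHOA or ROCK1 then takes the place of 18S as the reference. Each log2 fold change against RHOA is thus the one against 18S less the 0.24 of RHOA. Relative to RHOA, the ROCK branch rose: ROCK2 by 4.37 ± 0.171 on the log2 scale (SE, n = 2 per group; adjusted p = 0.000445, limma over 173 assays), PPP1R12A by 3.74 ± 0.284 (adjusted p = 0.000798) and ROCK1 by 3.46 ± 0.255 (adjusted p = 0.000725). DIAPH1 rose by 1.15 ± 0.221 (adjusted p = 0.00969) and ARHGAP5 by 4.64 ± 0.725 (adjusted p = 0.00503). In all 5 of 7 genes rose against RHOA, beside 57.8% of the panel that rose and 12.7% that fell. Their groups did not overlap, as was true in the higher direction of 64.2% of the panel.

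The Ct of RHOA minus that of ROCK2 was -8.46 and -8.66 cycles in HEK293-vector and -4.21 and -4.16 in HEK293-PRL-1. For ROCK1 it was -8.79 and -8.21 in HEK293-vector and -5.11 and -4.97 in HEK293-PRL-1. The pairs within a line thus agree to within 0.6 cycles, and the lines stand more than 3 cycles apart. Without HEK293-PRL-1 a or b, ARHGAP5 (4.55 and 4.73) and DIAPH1 (1.18 and 1.12) kept their size against RHOA but did not pass, which left 3 genes called, beside 64 and 60 of the 173 panel assays called higher.

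ARHGDIA and ARHGEF1, which did not pass against 18S, did not pass against RHOA either. The Ct of RHOA minus that of ARHGDIA was 1.43 and 1.36 cycles in HEK293-vector and 1.11 and 1.23 in HEK293-PRL-1. The groups did not overlap, but the difference of -0.23 ± 0.161 (SE, n = 2 per group) did not pass (95% interval -0.67 to 0.21; adjusted p = 0.264, limma), except with a variance trend (adjusted p = 0.0426, limma). ARHGEF1 differed from RHOA by -0.38 ± 0.182 (SE, n = 2 per group; 95% interval -0.87 to 0.11; adjusted p = 0.134, limma), also without overlap.

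**Figure D3:**
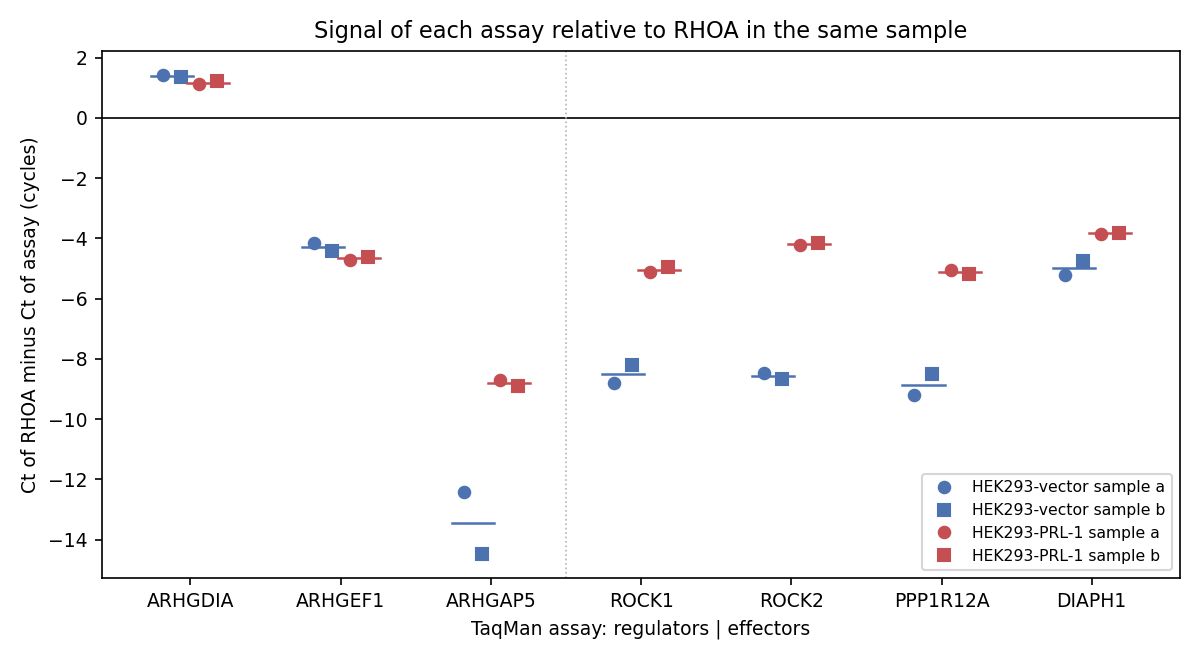
Ct of RHOA minus Ct of each other detected gene in the same sample, in cycles, with each sample as a point and group means as lines. ROCK1, ROCK2 and PPP1R12A move from between -9.20 and -8.21 in HEK293-vector to between -5.20 and -4.16 in HEK293-PRL-1, and ARHGDIA and ARHGEF1 stay within 0.6 cycles.

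The same values set against ROCK1 gave the differences among the genes that rose. PPP1R12A differed from ROCK1 by 0.27 ± 0.195 on the log2 scale (SE, n = 2 per group; 95% interval -0.26 to 0.81; adjusted p = 0.245, limma), and a difference within that interval could not be resolved. ROCK2 rose more than ROCK1 by 0.91 ± 0.318 (SE, n = 2 per group; 95% interval 0.03 to 1.78), which just missed the threshold (adjusted p = 0.0545, limma). The ROCK1 minus ROCK2 Ct was 0.34 and -0.45 cycles in HEK293-vector and 0.90 and 0.81 in HEK293-PRL-1, so that the HEK293-vector samples lay further apart than the HEK293-PRL-1 samples. This comparison passed with a variance trend (adjusted p = 0.0371, limma) and with Ct of 40 as missing or a stricter filter (adjusted p from 0.0445 to 0.0489, limma). It did not pass with each assay's own variance (adjusted p = 0.167). When 1 sample was left out, whether it passed turned on which sample that was. The difference was 1.30 without HEK293-vector a and 0.52 without HEK293-vector b. It was 0.86 without HEK293-PRL-1 a and 0.96 without HEK293-PRL-1 b.

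RHOA, ARHGDIA, ARHGEF1 and DIAPH1 fell against ROCK1, with 78.6% of the panel. The differences were -3.46 ± 0.261 for RHOA (SE, n = 2 per group; adjusted p = 0.00062, limma), -3.69 ± 0.277 for ARHGDIA (adjusted p = 0.00062), -3.84 ± 0.334 for ARHGEF1 (adjusted p = 0.000726) and -2.31 ± 0.167 for DIAPH1 (adjusted p = 0.000601). DIAPH1 thus fell against ROCK1, as most of the panel did. This compares single genes, and a difference between the ROCK branch and the DIAPH1 branch was not tested. ARHGAP5, at 1.18 ± 0.941 (SE, n = 2 per group; adjusted p = 0.295, limma), overlapped between the lines, with HEK293-vector a and b at -3.62 and -6.26 cycles. No member was called higher than ROCK1 by limma, beside 2.31% of the panel, or with each assay's own variance, beside 3 of 173 assays. At an unadjusted p of 0.05 in limma, 1 member (ROCK2) was higher. At that threshold 145 of the 173 panel assays passed, counting both directions.

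As a single contrast, the mean Ct of the 3 detected regulators minus the mean Ct of the 4 effectors was -2.87 and -1.70 cycles in HEK293-vector and -0.45 and -0.44 in HEK293-PRL-1. The effectors therefore gained 1.84 cycles on the regulators, given as a description without a test. The value turned much on ARHGAP5. Without it the contrast was -6.56 and -6.02 cycles in HEK293-vector and -2.76 and -2.85 in HEK293-PRL-1, a gain of 3.49 cycles. Without DIAPH1 the gain was 2.51 cycles. With all 7 genes it was 1.25 cycles without HEK293-vector a and 2.43 without HEK293-vector b. Role ran together with the time of the signal. In HEK293-vector the mean ΔCt was 9.62 for ARHGDIA, 15.29 for ARHGEF1 and 16.00 for DIAPH1. It was 19.52 to 19.87 for ROCK1, ROCK2 and PPP1R12A and 24.46 for ARHGAP5, a regulator that rose. Over 165 panel assays, mean ΔCt and log2 fold change had a Spearman correlation of 0.253 (0.226 without the members). Whether role or a late signal goes with the change was not tested.

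The direction of the smaller changes depended on the reference. GAPDH and B2M were themselves higher relative to 18S in HEK293-PRL-1, by 0.55 and 2.38 on the log2 scale. With GAPDH as the reference, ARHGDIA fell by 0.54 (adjusted p = 0.0417, limma) and ARHGEF1 fell by 0.69 (adjusted p = 0.0248, limma), RHOA was at -0.31 and did not pass (adjusted p = 0.151), and all 5 genes that rose against 18S still rose. The panel then held 49.4% higher and 21.8% lower assays.

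With B2M as the reference, RHOA fell by 2.14, ARHGDIA by 2.37 and ARHGEF1 by 2.52 on the log2 scale, and DIAPH1, at -0.99, did not pass (adjusted p = 0.0956, limma). ROCK2 rose by 2.23, PPP1R12A by 1.60, ROCK1 by 1.32 and ARHGAP5 by 2.50. The panel held 12.6% higher and 47.1% lower assays in that fit, in which limma gave every assay the same variance.

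With the panel median as the reference, RHOA fell by 1.95, ARHGDIA by 2.18, ARHGEF1 by 2.33 and DIAPH1 by 0.79 (adjusted p = 0.00757, limma), while ROCK2 rose by 2.43, PPP1R12A by 1.79, ROCK1 by 1.52 and ARHGAP5 by 2.69 (adjusted p = 0.041, limma). The panel then held 25.9% higher and 51.7% lower assays. Higher assays made up 88.7% of the panel's calls with 18S, 69.4% with GAPDH, 21.2% with B2M and 33.3% with the panel median, whose median log2 fold changes were 1.34, 0.79, -1.04 and -0.85. ROCK1, ROCK2, PPP1R12A and ARHGAP5 rose with each of the 4 references, whereas the sign of RHOA, ARHGDIA and DIAPH1 turned.

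**Figure D4:**
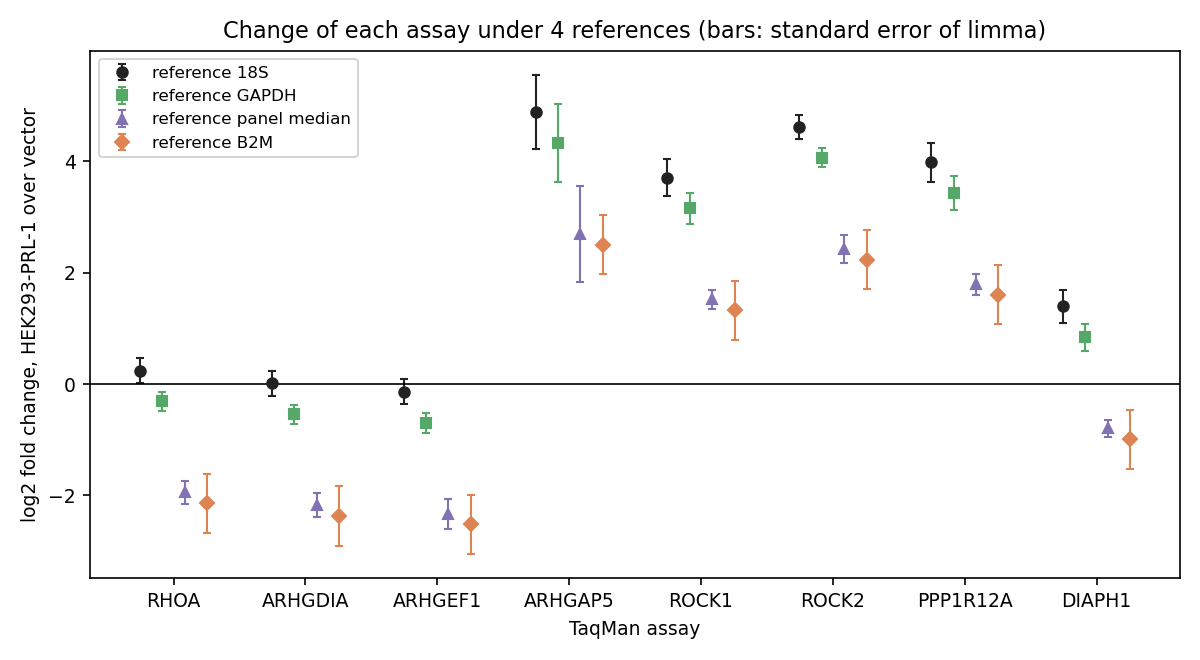
Log2 fold change of HEK293-PRL-1 over HEK293-vector for the 8 detected genes with 18S, GAPDH, the panel median or B2M as the reference (points, 2 samples per group) and the standard error of limma (bars). ROCK1, ROCK2, PPP1R12A and ARHGAP5 stay above 0 with all 4 references, DIAPH1 crosses 0, and RHOA, ARHGDIA and ARHGEF1 fall with B2M and the panel median.

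The assays whose levels ran closest to those of RHOA over the 4 samples, by the root mean square difference of centred levels, were TIMP2 (0.0316 cycles), MARK2 (0.0446) and CSNK2B (0.0539). Their log2 fold changes relative to 18S were 0.25, 0.32 and 0.34. The assays closest to ROCK2 were APC (0.151 cycles), ZEB1 (0.192) and MAP3K2 (0.305), with log2 fold changes of 4.67, 4.33 and 4.20. These are orderings over 4 samples of the same cDNAs, without a test.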

How the data were processed

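Total RNA of 2 HEK293-PRL-1 and 2 HEK293-vector samples was treated with DNase, and 1 µg was reverse transcribed with random hexamers. The authors amplified 100 ng of cDNA per well on 2 TaqMan plates of 96 wells per sample, and the submitters' processing notes name Partek 6.12.0531. The deposited table holds the raw Ct of each well in PCR cycles (no other unit), not normalized, with Ct of 40 or more set to 40. A second deposited table of the authors' fold changes was not used.

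Groups came from the labels. Column letters a and b are not tied to the labels' replicate numbers. Ct was subtracted from the sample's mean 18S Ct, assuming a doubling per cycle, and tested with lmFit and eBayes of limma 3.58.1 (R 4.3.3, Benjamini-Hochberg, threshold 0.05) over the 174 assays below 40 in at least 1 sample. Each assay had 2 residual degrees of freedom and limma added a prior of 2.46. The same test was run relative to RHOA and to ROCK1. Only the fit relative to 18S was checked on simulated data, which had independent noise and rises and falls drawn alike. The panel's own calls with 18S were mostly rises, and the simulation did not cover the fits relative to RHOA and to ROCK1. A Ct has no read depth, and the number of samples limits the precision. Alternatives were GAPDH, B2M or the panel median as reference, 18S of the own plate, Ct of 40 as missing, 3 other filters, 2 other variance estimates (including the methods' test on each assay's own variance), the column letters as a block, and leaving out each sample.

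Members were chosen with earlier results of these data known. Named genes were the 9 members, the 3 assays with the nearest profile to RHOA and to ROCK2, the reference genes and PTP4A1. Some other genes and a further gene list covered by the naming rule are not reported here. All 9 members matched RefSeq (GRCh38.p14), which gave the locations and promoter sequences. Figures used matplotlib 3.10.9, with pandas 2.3.3 and numpy 2.4.6, under Python 3.11.15.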

Additional observations from a re-analysis of the deposited data

How the results depend on the processing

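Relative to 18S, 5 members rose and 0 fell. With each assay's own variance 3 rose. With GAPDH, B2M and the panel median as the reference 2, 3 and 4 fell. On the panel, 102 assays rose and 13 fell with 18S. The numbers that rose were 22 with B2M, 45 with the panel median and 42 with own variance, and those that fell were 38 with GAPDH, 82 with B2M and 90 with the panel median. With a sample left out, 7 to 19 panel assays fell in place of 13. Relative to RHOA, 3 members rose with own variance (67 of 173 panel assays), 3 to 5 rose with a sample left out (60 to 103), and 1 (ARHGDIA) fell with a variance trend (23). Relative to ROCK1, 1 member (ROCK2) rose with Ct of 40 as missing (6 of 170 panel assays) and with either stricter filter (5 of 164 and 6 of 151). ROCK2 also rose with the variance trend (6 of 173) and with the replicate block (6 of 173). With a sample left out, its log2 fold change against ROCK1 was 0.52 to 1.30.

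The sign turned for ARHGDIA (-0.54 with GAPDH, -2.37 with B2M, -2.18 with the panel median, and -0.13 to 0.15 with a sample left out), for DIAPH1 (-0.99 with B2M and -0.79 with the panel median) and for RHOA (-0.31, -2.14 and -1.95 with GAPDH, B2M and the panel median). ARHGAP5 relative to ROCK1 ranged from -0.14 to 2.50 with a sample left out. These references shift every assay alike by construction. When a sample is left out, the remaining one is assumed to vary like the pair of the other line. The effector contrast ranged from 1.25 to 2.43 cycles with a sample left out.

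Column letters did not pair the samples in a clear way: over 165 assays the deviations of same-letter samples correlated at Pearson r = 0.038 across assays, which are not independent replicates. With the letters as a replicate block, 5 members rose and 104 panel assays rose and 13 fell, and relative to ROCK1 the call of ROCK2 was gained. Depth does not apply to Ct values, and late Ct values limit ARHGAP5.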
